A study of Mus musculus with 4 samples.

Results

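The variant histone genes examined here are H2afz, H2afv, H2afx, H2afy, H2afy2, H3f3a, H3f3b and H1f0. They were taken by symbol, 8 of the 27998 genes of the Illumina count table, together with every Nanopore isoform listed under these symbols, of which 27 had a UMI (of 31986 isoforms listed for all genes). The cells came from E18 brain (cortex, hippocampus, sub ventricular zone) of a C57BL/6 mouse with no treatment and no engineered allele, dissociated to 1 suspension and captured in 1 10x Genomics Chromium emulsion. The emulsion was split into an aliquot of 190 cells and one of 951 cells, and the cDNA of each was sequenced with Illumina (1 end of each molecule) and with Nanopore (whole molecules). UMIs, random tags that mark 1 captured RNA molecule, were counted per gene or per isoform and cell. The aliquots are technical replicates, so no p-value below carries information on the spread between animals. Except in the test between aliquots, each p-value measures only the spread between the aliquots.

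In chromatin, variant histones take the place of the canonical histones. The canonical genes are expressed in S phase and give mRNAs that end in a stem-loop without a poly(A) tail, while most variant genes have introns, give polyadenylated mRNAs and are used in and outside S phase. H2afz and H2afv encode the H2A.Z proteins, which the SRCAP and p400 complexes exchange into nucleosomes at promoters. H2afx encodes H2A.X, the variant that ATM, ATR and DNA-PK phosphorylate next to DNA breaks. H2afy and H2afy2 encode the macroH2A proteins, which carry a large macro domain and are known from silent chromatin. H3f3a and H3f3b encode the same protein, H3.3, which HIRA and the DAXX-ATRX complex deposit outside replication, and H1f0 encodes the linker histone H1.0, known for its presence in cells that have left the cycle.

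The coding sequences of the H2A.Z genes, and those of the H3.3 genes, differ mainly at the third base of codons. The macroH2A genes were not aligned with each other. H2afv-202 and H2afz-201 differed at 80 of 384 coding bases (79.2% identity), and 69 of these differences lay at the third base of a codon. Exon 3 of both transcripts is printed because the minor isoform H2afv-201 lacks it, and capitals mark the 23 of 114 bases at which they differ. The exons lie at chr11:6433724-6433837 (minus strand) and chr3:137865520-137865633 (plus strand) on GRCm38.

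H2afv-202 exon 3: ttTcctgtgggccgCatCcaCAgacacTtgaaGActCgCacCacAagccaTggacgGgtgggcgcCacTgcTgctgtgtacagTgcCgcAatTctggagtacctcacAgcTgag
H2afz-201 exon 3: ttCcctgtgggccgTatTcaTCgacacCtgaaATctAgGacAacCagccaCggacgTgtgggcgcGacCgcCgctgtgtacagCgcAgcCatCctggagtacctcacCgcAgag

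H3f3a-205 and H3f3b-201 differed at 95 of 408 coding bases (76.7% identity), 81 of them at the third base of a codon, although the protein is the same. The first 120 coding bases follow, with capitals at the 24 bases that differ. They lie in exon 2 of each gene, at chr1:180811807-180811926 and chr11:116023890-116024009 (minus strand for both).

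H3f3a: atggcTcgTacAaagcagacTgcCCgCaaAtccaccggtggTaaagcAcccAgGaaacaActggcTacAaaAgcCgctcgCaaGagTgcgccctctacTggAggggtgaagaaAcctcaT
H3f3b: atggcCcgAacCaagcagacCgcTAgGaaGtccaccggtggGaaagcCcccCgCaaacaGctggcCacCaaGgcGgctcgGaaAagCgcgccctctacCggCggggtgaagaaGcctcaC

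H2afy has a pair of alternative coding exons in the macro domain. H2afy-201 uses the exon at chr13:56089758-56089857 and H2afy-202 the exon at chr13:56088252-56088342 (minus strand), the forms known as macroH2A1.2 and macroH2A1.1, of which the second is known to bind ADP-ribose. No base is marked in them.

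H2afy-201 exon 6: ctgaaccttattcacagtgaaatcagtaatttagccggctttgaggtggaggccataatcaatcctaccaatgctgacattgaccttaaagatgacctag
H2afy-202 exon 6: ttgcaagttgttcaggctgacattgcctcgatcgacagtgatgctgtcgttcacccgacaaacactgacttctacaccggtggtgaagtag

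H2afx is a gene of a single exon, and its last 30 coding bases, at chr9:44335161-44335190 (plus strand), hold the codon of the serine that is phosphorylated at DNA breaks, printed in capitals.

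H2afx: aagaaggcctcgcaggccTCTcaggagtac

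Among the promoters of 7 members found in the RefSeq table for GRCm38.p6, CCAAT (or ATTGG, the same letters on the other strand) stood 3 times in H2afz, 4 times in H2afv, 4 times in H3f3b, 1 time each in H3f3a and H2afy2, and 0 times in H2afy and H1f0. Of all 32851 promoters of the same 300 bases, 37.4% held it at least 1 time and 3.4% at least 3 times. The E2F-like letters GGCGGGAA (or TTCCCGCC) were in 0 of the 7 windows and in 2.2% of all, and TTTGAA (or TTCAAA) was in H2afv alone of the 7 and in 17.9% of all. The promoters of the H2A.Z genes H2afz, chr3:137864237-137864536 (plus strand), and H2afv, chr11:6444394-6444693 (minus strand), are printed with CCAAT of either strand in capitals. No promoter of H2afx was found there, and a link between matches and levels was not tested. A match is a run of letters and no evidence of a bound factor.

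H2afz promoter: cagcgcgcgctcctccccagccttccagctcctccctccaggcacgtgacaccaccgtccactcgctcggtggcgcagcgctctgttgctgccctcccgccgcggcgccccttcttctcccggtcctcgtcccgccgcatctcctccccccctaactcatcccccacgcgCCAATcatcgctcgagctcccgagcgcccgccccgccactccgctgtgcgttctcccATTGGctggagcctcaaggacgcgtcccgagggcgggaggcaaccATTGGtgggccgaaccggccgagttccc
H2afv promoter: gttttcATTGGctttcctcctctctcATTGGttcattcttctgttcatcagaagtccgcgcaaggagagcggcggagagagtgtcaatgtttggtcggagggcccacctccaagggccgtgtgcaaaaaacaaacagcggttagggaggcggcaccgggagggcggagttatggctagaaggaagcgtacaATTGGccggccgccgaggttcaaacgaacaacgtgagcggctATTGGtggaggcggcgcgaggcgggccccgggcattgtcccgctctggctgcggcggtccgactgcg

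Cells with at least 1400 genes in the Illumina data were kept, 186 in the 190 cell aliquot and 935 in the other, 1121 in all, with medians of 8048.5 and 7551 Illumina UMIs and 4394 and 4487 Nanopore UMIs per cell. The aliquots shared 12 barcodes among these cells, and 3 and 4 cells were called doublets and kept. Clusters were formed without 85 histone genes, so that no member defined a class, and named from marker genes. The classes and their cells (190 and 951 cell aliquot) were cycling radial glia-like cells (24 and 92), radial glia-like cells (20 and 87), intermediate progenitor-like cells (9 and 42), immature glutamatergic-like (38 and 192), mature glutamatergic-like (43 and 239), Sst interneuron-like (18 and 127), striatal neuron-like (30 and 143) and Cajal-Retzius-like (4 and 13, too few for the tests). Markers went against clean borders among the progenitor classes. The radial glia-like sums held more Eomes, a gene of intermediate progenitors, than the intermediate progenitor-like sums (190.4 and 225 against 123 and 131 CPM). The radial glia-like sums also held 284 and 203.7 CPM of Top2a, a gene of dividing cells. Top2a had 696 and 605 CPM in the cycling class and 0 and 5.56 CPM in the intermediate progenitor-like class. The markers of the latter class averaged a log2 fold of 1.30 there over all other cells, and those of immature glutamatergic-like cells 0.96. The cycling class was named from genes of dividing cells alone, so radial glia-like is only a label in its name. The class held 808 and 604 CPM of the radial glia marker Fabp7, against 5802 and 6988 CPM in the radial glia-like class. Among the other marker lists, that of intermediate progenitor-like cells scored highest in the cycling class (mean log2 fold 0.74). Cycling and cell type thus cannot be told apart between these progenitor classes. Top2a had 7.37 and 3.67 CPM in mature glutamatergic-like and 29.35 and 9.56 CPM in Sst interneuron-like cells. Their comparisons with radial glia-like cells carry the same limit. With a finer clustering (resolution 1.2 in place of 0.8), 35 of the 107 radial glia-like cells joined the intermediate progenitor-like class, whose leading genes then included Ccl4, Ccl3 and Tyrobp of microglia. In the radial glia-like class all 6 microglia markers were at 0 UMIs in the 190 cell aliquot and summed to 304 CPM in the other, in which 2 cells carried at least 5 such UMIs. Without such cells, all 48 member tests kept their side of the threshold. One immature glutamatergic-like cluster of 86 cells had none of its class markers among its top 10 genes. Borders of neuron classes also moved with the finer clustering. There 71 mature glutamatergic-like cells joined the immature class and 211 stayed. Of the striatal neuron-like cells, 43 joined the Sst interneuron-like class and 130 stayed. An immature glutamatergic-like cluster of 70 cells was then led by Crym, a marker of the mature class.

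Illumina UMIs were summed per class and aliquot, and 6 pairs of classes were compared in 1 fit over 7709 genes with edgeR's quasi-likelihood test, with a Benjamini-Hochberg adjusted p under 0.05 as the threshold. Levels are given as CPM, the UMIs of the gene per 1000000 UMIs of all genes in that sum. CPM is a share of the RNA captured. On a scale of UMIs per cell, the median log2 fold of all genes shifted from near 0 (-0.03 to -0.01) to -0.2 for cycling radial glia-like, -0.55 for intermediate progenitor-like, -0.17 for mature glutamatergic-like and -1.29 for Sst interneuron-like cells, each against radial glia-like cells. It shifted to 0.5 for mature against immature glutamatergic-like and to -1.05 for striatal neuron-like against mature glutamatergic-like cells. Folds below are relative to these medians, and a gene that passed but whose sign turns on the per cell scale is named beside its fold. The first 4 comparisons share the radial glia-like sums as controls, so their values are not independent of each other.

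Between cycling radial glia-like and radial glia-like cells, 6 of the 8 members passed, all higher in cycling cells. There 10.8% of all genes passed (5.47% or 422 genes higher and 5.29% or 408 lower, against 247 and 567 per cell). Between intermediate progenitor-like and radial glia-like cells 3 members were higher and 3 lower, where 17.1% of genes passed (8.06% or 621 higher and 9.05% or 698 lower, against 290 and 1770 per cell). For mature glutamatergic-like against radial glia-like cells 1 member was higher and 4 lower, where 33.5% passed (16.7% either way, 1289 higher and 1290 lower, against 963 and 1476 per cell). For Sst interneuron-like against radial glia-like cells 3 were higher and 4 lower, where 31.2% passed (14.5% or 1117 higher and 16.8% or 1292 lower, against 294 and 4615 per cell). From immature to mature glutamatergic-like cells 2 members were lower and 0 higher, where 3.63% passed (2.04% or 157 higher and 1.6% or 123 lower, against 1273 and 43 per cell). In striatal neuron-like against mature glutamatergic-like cells 6 members were higher and 0 lower, where 9.03% passed (3.58% or 276 higher and 5.45% or 420 lower, against 107 and 4415 per cell). H2afy passed in none of the 6 comparisons. The count in the first comparison rested on the radial glia-like sum of the 951 cell aliquot, since without it 1 member, H3f3b, passed. Without the immature glutamatergic-like sum of that aliquot, H3f3b lost its call in the fifth (log2 -0.55). On the per cell scale 2 members passed in the sixth, H1f0 as higher (log2 0.67) and H3f3a as lower (-0.46).

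**Figure D1:**
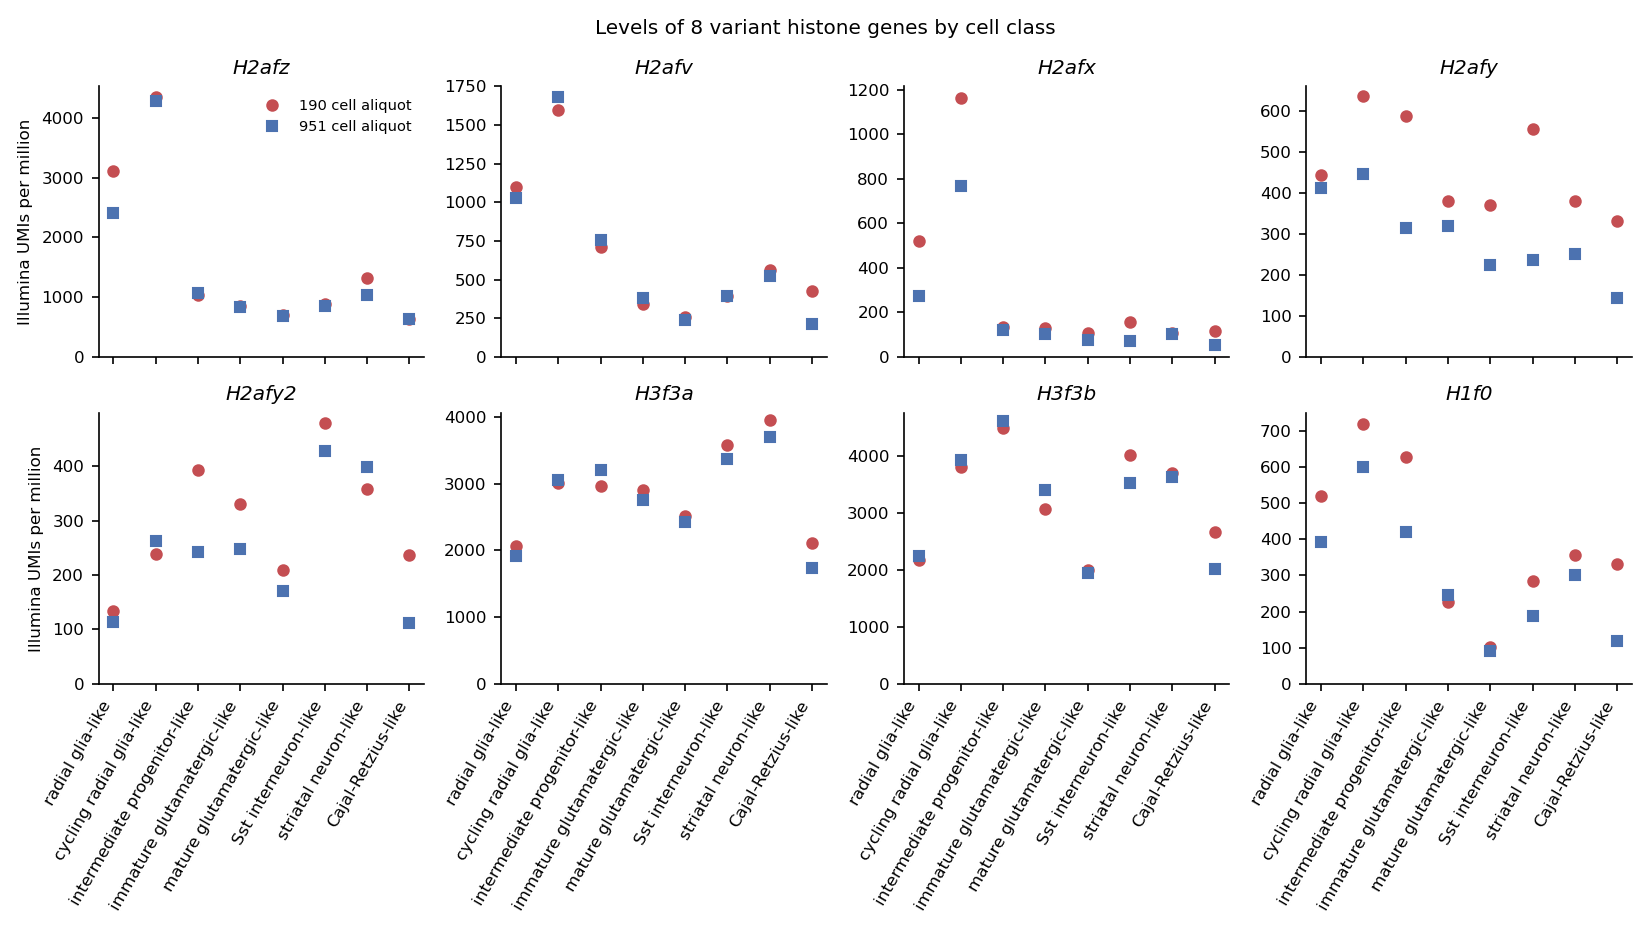
Illumina level (CPM, linear axis from 0) of each variant histone gene in 8 cell classes; 1 point is the sum over the cells of a class in 1 aliquot (circles 190 cells, squares 951 cells). H2afz, H2afv and H2afx peak in cycling radial glia-like cells, H3f3b in intermediate progenitor-like cells, and H1f0 is lowest in mature glutamatergic-like cells in both aliquots.

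H2afz (chr3:137864487-137866922, plus strand, GRCm38), the major H2A.Z gene by UMIs, was high in the cycling and the radial glia-like class and low in intermediate progenitor-like cells and neurons. Its CPM was 4347 and 4285 in cycling radial glia-like cells and 3116 and 2405 in radial glia-like cells (190 and 951 cell aliquot). It was 1044 and 1071 in intermediate progenitor-like, 852 and 836 in immature glutamatergic-like, 697 and 677 in mature glutamatergic-like, 890.2 and 851 in Sst interneuron-like, 1326 and 1041 in striatal neuron-like and 638 and 630.1 in Cajal-Retzius-like cells. The cycling and the radial glia-like class thus lay above all others in both aliquots with no overlap. The ranges of neighbours overlapped for striatal neuron-like and intermediate progenitor-like cells and for Sst interneuron-like and immature glutamatergic-like cells.

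By edgeR's quasi-likelihood test, H2afz was higher in cycling radial glia-like cells by a log2 fold of 0.64 (SE 0.16, adjusted p = 0.0044), which is 1.56-fold. The adjusted p was 0.21 without the radial glia-like sum of the 951 cell aliquot and 0.053 without the cycling sum of the 190 cell aliquot. H2afz fell by 1.47 on the log2 scale in intermediate progenitor-like (SE 0.16, adjusted p = 5.1e-09), by 1.97 in mature glutamatergic-like (adjusted p = 3.2e-13) and by 1.78 in Sst interneuron-like cells (adjusted p = 1.3e-11), each against radial glia-like cells. The first of these falls was already 2.76-fold, and from immature to mature glutamatergic-like cells the log2 fold was -0.23 (adjusted p = 0.62). Striatal neuron-like cells were above mature glutamatergic-like cells by a log2 fold of 0.75 (adjusted p = 0.00086), which turned to -0.31 on the per cell scale and had an adjusted p of 0.095 without the striatal sum of the 190 cell aliquot.

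Single radial glia-like cells spread widely. Per 10000 UMIs of a cell, the radial glia-like median of H2afz was 24.4 in the 190 cell aliquot with a 10th to 90th percentile range of 5.87 to 63.7, and 16.5 in the other with a range of 6.22 to 47.2. Cycling cells had medians of 41.3 and 45.8, and their 10th percentiles of 31.0 and 24.6 lay above the radial glia-like medians. The 90th percentiles of mature glutamatergic-like cells, 11.4 and 10.7, lay below the 10th percentiles of cycling cells.

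**Figure D2:**
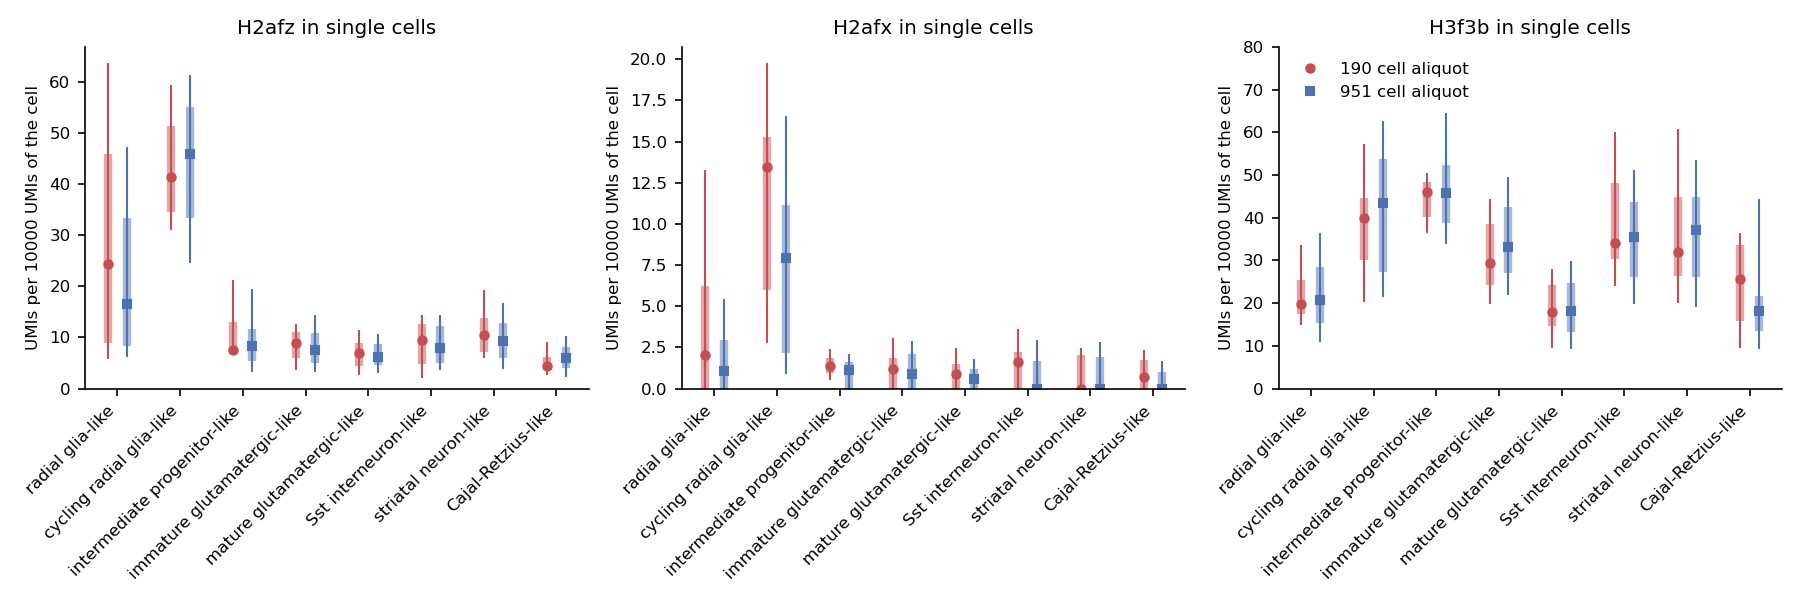
UMIs of H2afz, H2afx and H3f3b per 10000 UMIs of a cell (linear axes from 0) by class and aliquot (circles 190 cells, squares 951 cells); points are medians over cells, thick bars run from the 25th to the 75th and thin bars from the 10th to the 90th percentile. H2afz spans from 5.87 to 63.7 among radial glia-like cells of the 190 cell aliquot, and the H2afx median is 0 in striatal neuron-like cells of both.

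H2afv (chr11:6427229-6444443, minus strand), the second H2A.Z gene, was also highest in the cycling and the radial glia-like class, at lower counts. Unlike for H2afz, intermediate progenitor-like cells lay above all neuron classes. Its CPM was 1594 and 1679 in cycling radial glia-like, 1098 and 1030 in radial glia-like, 713 and 754 in intermediate progenitor-like, 563 and 526 in striatal neuron-like, 391.3 and 392 in Sst interneuron-like, 343 and 383 in immature and 259.9 and 236 in mature glutamatergic-like cells. The ranges of these 7 classes did not overlap between any neighbours in this order. H2afv was higher in cycling radial glia-like than in radial glia-like cells by a log2 fold of 0.62 (SE 0.17, adjusted p = 0.012 by edgeR). H2afv lost this call without either cycling sum (log2 0.71 without the 190 and 0.59 without the 951 cell aliquot). H2afv also lost it without the radial glia-like sum of the 951 cell aliquot (0.56). It was lower than in radial glia-like cells by log2 folds of -0.61 in intermediate progenitor-like cells (adjusted p = 0.012, or 0.11 without their 190 cell aliquot sum and 0.052 with no filter on low counts), -2.07 in mature glutamatergic-like (adjusted p = 1.2e-12) and -1.54 in Sst interneuron-like cells (adjusted p = 6.7e-09). Striatal neuron-like cells were higher than mature glutamatergic-like cells by a log2 fold of 1.11 (adjusted p = 1.2e-05), which was 0.05 (adjusted p = 0.79) on the per cell scale. From immature to mature glutamatergic-like cells the log2 fold was -0.5 (adjusted p = 0.12), which passed when the aliquot was a block in the fit (-0.54, adjusted p = 0.00026).

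The H2afv share of all H2A.Z UMIs (H2afv plus H2afz) set 1 class of the fit apart. It was 40.6% (exact binomial 95% interval 32.4 to 49.1) and 41.3% (37.5 to 45.2) in intermediate progenitor-like cells, against 26.1% (23.4 to 28.8) and 29.97% (28.6 to 31.4) in radial glia-like and 26.8% and 28.2% in cycling cells. In the neuron classes of the fit it ran from 25.9% to 33.6%, and all these intervals except that of mature glutamatergic-like cells overlapped the intermediate progenitor-like one in the 190 cell aliquot, none in the other. Such a share compares captured 3′ ends, and intervals cover counting error only.

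H2afx (chr9:44334694-44336077, plus strand), the variant of the DNA damage response, was found mainly in the cycling and the radial glia-like class. Its CPM was 1162 and 768 in cycling radial glia-like cells and 523 and 272 in radial glia-like cells. All other classes lay between 55.8 and 157 CPM and overlapped along their whole order, from 135 and 122 in intermediate progenitor-like to 107 and 77.1 in mature glutamatergic-like cells. The cycling and the radial glia-like class were above all others, and the 190 cell aliquot was above the 951 cell aliquot in each class. Reverse transcription was primed with oligo-dT, so H2afx mRNA without a poly(A) tail or an internal A-rich site is not in these levels.

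H2afx was 2.47-fold higher in cycling radial glia-like than in radial glia-like cells (log2 1.3, SE 0.28, edgeR adjusted p = 0.0035). This call was lost with the finer clustering (0.99, adjusted p = 0.064), on the per cell scale (1.21, adjusted p = 0.14) and without the radial glia-like sum of the 951 cell aliquot (0.85, adjusted p = 0.087). It fell by 1.68 on the log2 scale in intermediate progenitor-like (SE 0.33, adjusted p = 0.001), by 2.08 in mature glutamatergic-like (adjusted p = 9.4e-06) and by 2.09 in Sst interneuron-like cells (adjusted p = 5.3e-05). Between neuron classes no difference passed, with log2 folds of -0.31 (SE 0.3) from immature to mature glutamatergic-like and 0.22 (SE 0.31) for striatal neuron-like against mature glutamatergic-like cells. In single cells the median per 10000 UMIs was 13.5 and 7.91 in cycling and 2.03 and 1.05 in radial glia-like cells, and the 25th percentile of radial glia-like cells was 0 in both aliquots.

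H2afy (chr13:56073619-56136361) and H2afy2 (chr10:61738665-61784147), the macroH2A genes, both on the minus strand, had different patterns. H2afy had CPM of 638 and 447 in cycling, 446 and 413 in radial glia-like, 589.8 and 314 in intermediate progenitor-like, 380.3 and 319.9 in immature and 370.5 and 224 in mature glutamatergic-like, 558 and 236 in Sst interneuron-like and 381 and 253 in striatal neuron-like cells. All neighbours overlapped, and the 190 cell aliquot was the higher in each class. H2afy differed from radial glia-like cells by log2 folds of 0.32 (SE 0.37) in cycling, -0.1 (SE 0.4) in intermediate progenitor-like, -0.52 (SE 0.37) in mature glutamatergic-like and -0.35 (SE 0.4) in Sst interneuron-like cells, with edgeR adjusted p from 0.34 to 0.93. With the aliquot as a block, the fall in mature glutamatergic-like cells (-0.63, adjusted p = 7e-06) and in Sst interneuron-like cells (-0.54, adjusted p = 0.0022) passed, the latter also without the Sst interneuron-like sum of the 190 cell aliquot (-0.93, adjusted p = 0.025).

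H2afy2 was lowest in radial glia-like cells, at 134 and 113 CPM, and highest in Sst interneuron-like cells, at 479 and 427 CPM. It had 238 and 262 CPM in cycling, 393 and 242 in intermediate progenitor-like, 330 and 247 in immature and 208 and 170.0 in mature glutamatergic-like and 357 and 399 in striatal neuron-like cells. Sst interneuron-like cells did not overlap the next class, and radial glia-like cells overlapped Cajal-Retzius-like cells (237 and 112 CPM) only. Against radial glia-like cells, H2afy2 rose in all 4 comparisons by edgeR, by log2 folds of 1.05 in cycling (SE 0.22, adjusted p = 0.00098), 1.21 in intermediate progenitor-like (adjusted p = 0.00019), 0.66 in mature glutamatergic-like (adjusted p = 0.017) and 1.78 in Sst interneuron-like cells (adjusted p = 3.7e-08). Without the radial glia-like sum of the 951 cell aliquot, the cycling call (adjusted p = 0.089) and the mature glutamatergic call (0.28) were lost, and the latter also without the mature sum of the 190 cell aliquot (0.13), in DESeq2 (0.1) and on the per cell scale (0.095). Striatal neuron-like cells were above mature glutamatergic-like cells by 1.0 (adjusted p = 0.00071), a sign that turned on the per cell scale (-0.06). The step from immature to mature glutamatergic-like cells was -0.54 (adjusted p = 0.18, and 0.0029 with the aliquot as a block). That step was -0.06 with the finer clustering and -0.04 (adjusted p = 0.94) on the per cell scale.

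As a share of macroH2A UMIs (H2afy2 plus H2afy), H2afy2 made up 23.1% (16.5 to 30.9) and 21.5% (18.3 to 25) in radial glia-like cells. It made up 46.2% (36.5 to 56.2) and 64.4% (59.6 to 69.0) in Sst interneuron-like and 48.4% (39.2 to 57.6) and 61.2% (56.9 to 65.3) in striatal neuron-like cells. Both neuron classes lay above radial glia-like cells in each aliquot with no overlap of intervals, and so did immature glutamatergic-like cells (46.5% and 43.6%). Cycling (27.2% and 37.0%), intermediate progenitor-like (40.0% and 43.5%) and mature glutamatergic-like cells (36.0% and 43.1%) did so in the 951 cell aliquot only. H2afy was higher in the 190 cell aliquot by a log2 fold of 0.49 within classes, which enters these shares.

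The H3.3 genes, H3f3a (chr1:180800832-180813943) and H3f3b (chr11:116021912-116027962), both on the minus strand, had the highest CPM of the 8 members in every neuron class, as counts of captured 3′ ends with no correction for length. H3f3a had CPM of 2066 and 1913 in radial glia-like, 3014 and 3046 in cycling, 2961 and 3210 in intermediate progenitor-like, 2904 and 2761 in immature and 2516 and 2427 in mature glutamatergic-like, 3571 and 3370 in Sst interneuron-like and 3947 and 3701 in striatal neuron-like cells. H3f3b had 2176 and 2246, 3806 and 3935, 4497 and 4632, 3077 and 3418, 2000 and 1956, 4030 and 3533, and 3711 and 3637 CPM in the same order of classes. H3f3b was highest in intermediate progenitor-like cells with no overlap, where H3f3a was highest in striatal neuron-like cells with no overlap.

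H3f3a rose by a log2 fold of 0.6 in cycling (SE 0.14, edgeR adjusted p = 0.0028, or 0.072 without the radial glia-like sum of the 951 cell aliquot) and by 0.55 in intermediate progenitor-like cells (adjusted p = 0.0043). The second call was lost on the per cell scale (0.09, adjusted p = 0.66), with no filter on low counts (0.055) and without the 951 cell aliquot sum of either class (0.34 and 0.1). H3f3b rose by 0.8 in cycling (adjusted p = 5.9e-05) and by 0.96, which is 1.94-fold, in intermediate progenitor-like cells (adjusted p = 1.5e-06). In Sst interneuron-like cells H3f3a was higher by 0.69 (adjusted p = 0.00016) and H3f3b by 0.65 (adjusted p = 0.00026) on the CPM scale, and both turned to falls on the per cell scale (-0.47 and -0.5, adjusted p = 0.0011 and 0.00051).

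In mature glutamatergic-like against radial glia-like cells, neither H3.3 gene passed, with log2 folds of 0.34 for H3f3a (edgeR adjusted p = 0.054) and -0.13 for H3f3b (adjusted p = 0.52). H3f3a passed there with the aliquot as a block (adjusted p = 0.0004), without doublets (0.014) and with the finer clustering (0.0014). From immature to mature glutamatergic-like cells H3f3b fell by 0.65 on the log2 scale (SE 0.14, adjusted p = 0.0021), a call lost without the immature sum of the 951 cell aliquot (0.074) and on the per cell scale (0.43), while the log2 fold of H3f3a was -0.13 (adjusted p = 0.82, and 0.37 with an adjusted p of 0.029 on the per cell scale). Striatal neuron-like cells were above mature glutamatergic-like cells by 0.6 for H3f3a (adjusted p = 0.0025, or 0.084 without the striatal sum of the 190 cell aliquot) and 0.87 for H3f3b (adjusted p = 1.1e-05), signs that turned on the per cell scale (-0.46 and -0.19).

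Within H3.3 the balance of the genes changed between classes. H3f3a made up 55.7% (53.7 to 57.7) and 55.4% (54.5 to 56.3) of H3.3 UMIs in mature glutamatergic-like cells, and 39.7% (35.8 to 43.7) and 40.9% (39.1 to 42.8) in intermediate progenitor-like cells. Radial glia-like cells had 48.7% (45.6 to 51.8) and 46.0% (44.6 to 47.4), immature glutamatergic-like cells 48.6% and 44.7%, and striatal neuron-like cells 51.5% and 50.4%. By point value, mature glutamatergic-like cells lay above and intermediate progenitor-like cells below every other class in both aliquots. In the 190 cell aliquot the mature glutamatergic-like interval overlapped that of striatal neuron-like cells (48.8 to 54.3). The intermediate progenitor-like interval overlapped those of cycling and Cajal-Retzius-like cells in both aliquots. It also overlapped that of Sst interneuron-like cells in the 190 cell aliquot. The share needs no scaling, since both genes are counted in the same cells. H3f3a and H3f3b have near-identical pseudogene copies in the mouse genome, and reads shared with them were not told apart here.

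**Figure D3:**
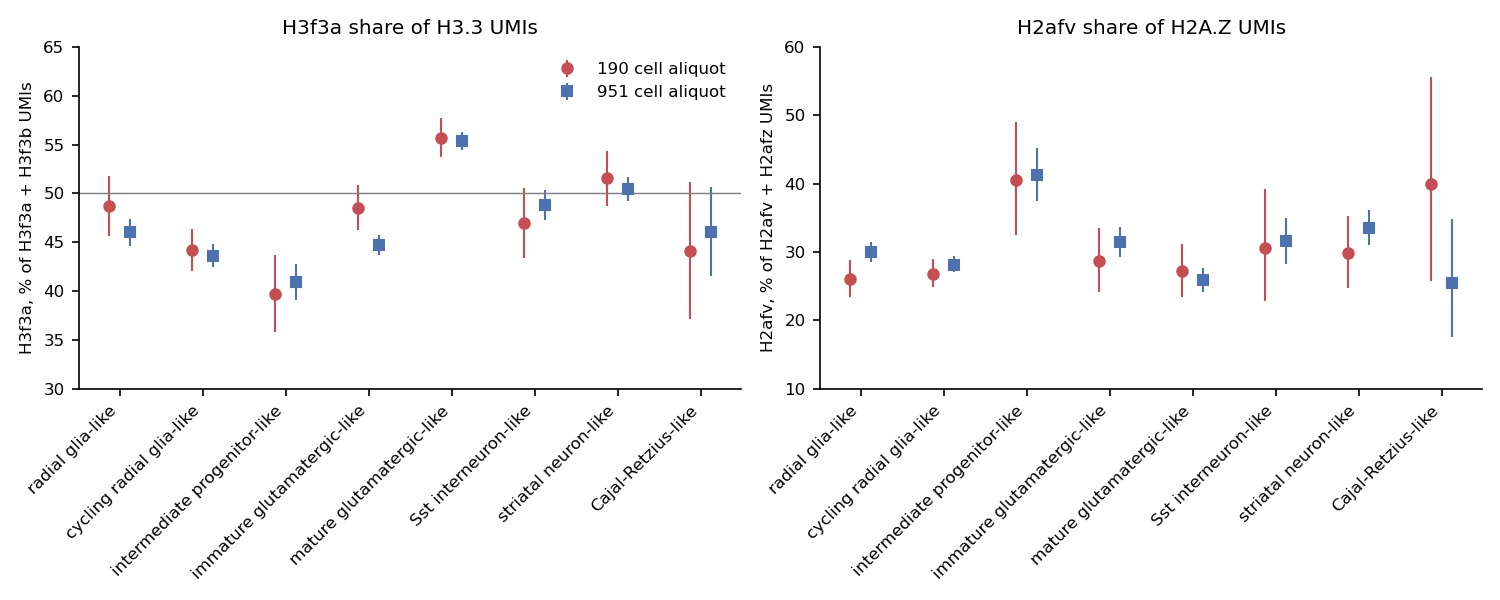
H3f3a as a percent of H3f3a plus H3f3b UMIs (left, axis from 30 to 65) and H2afv as a percent of H2afv plus H2afz UMIs (right, axis from 10 to 60) in Illumina data, by class; circles are the 190 and squares the 951 cell aliquot, and bars are exact binomial 95% intervals. The H3f3a share is highest in mature glutamatergic-like cells (55.7% and 55.4%), and the intermediate progenitor-like class has the lowest H3f3a share (39.7% and 40.9%) and, among classes of the fit, the highest H2afv share.

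H1f0 (chr15:79028450-79030504, plus strand), the linker histone gene, was lowest in mature glutamatergic-like cells. Its CPM was 718 and 600.3 in cycling, 627 and 420.0 in intermediate progenitor-like, 519 and 394 in radial glia-like, 357 and 301 in striatal neuron-like, 226 and 247 in immature glutamatergic-like, 284 and 186 in Sst interneuron-like and 103 and 92.2 in mature glutamatergic-like cells. Mature glutamatergic-like cells did not overlap any other class. The intermediate progenitor-like range overlapped those of the cycling and the radial glia-like class, which did not overlap each other. By edgeR's test H1f0 fell by 2.19 on the log2 scale in mature glutamatergic-like (SE 0.22, adjusted p = 4.2e-11) and by 1.13 in Sst interneuron-like cells (adjusted p = 8.9e-05) against radial glia-like cells, and by 1.23 from immature to mature glutamatergic-like cells (adjusted p = 0.00015). Striatal neuron-like cells were 3.29-fold above mature glutamatergic-like cells (log2 1.72, adjusted p = 1e-07). The cycling difference was 0.53 (SE 0.2, adjusted p = 0.085), which passed with the aliquot as a block (0.56, adjusted p = 0.00014) and without the radial glia-like sum of the 190 cell aliquot (0.74, adjusted p = 0.043), and the intermediate progenitor-like difference was 0.07 (adjusted p = 0.88).

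**Figure D4:**
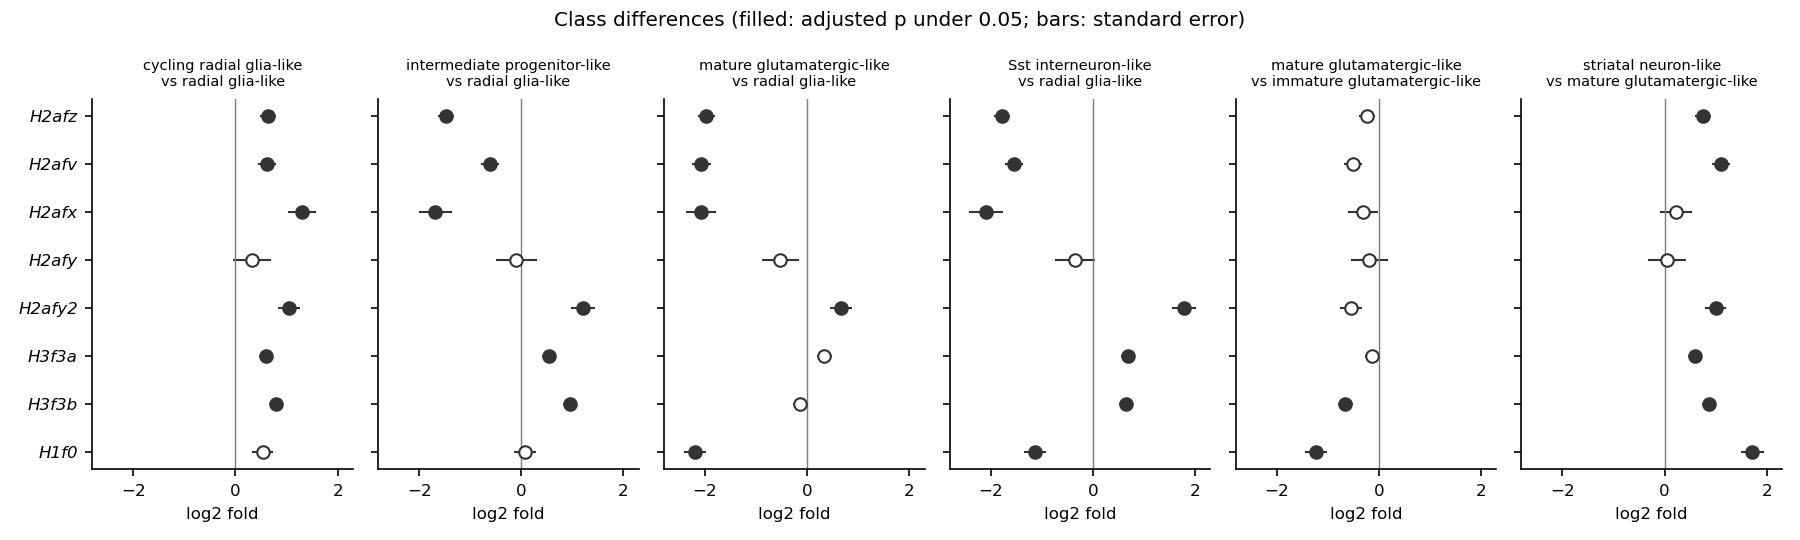
Log2 folds (edgeR quasi-likelihood fit on summed Illumina UMIs, CPM scale) of the 8 genes in 6 class comparisons, first class against the second; bars are standard errors and filled points have an adjusted p under 0.05. H2afz, H2afv and H2afx lie above 0 in cycling cells and below -0.5 in the next 3 comparisons; the positive folds of H3f3a and H3f3b in Sst interneuron-like cells and of H2afz, H2afy2, H3f3a and H3f3b in striatal neuron-like cells turn sign when scaled by UMIs per cell.

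The replication-dependent histones of the Hist1 to Hist4 clusters, of which 21 of 68 were tested, are given beside the variants. Reverse transcription was primed with oligo-dT. UMIs of these genes thus come from molecules with a poly(A) tail or primed at internal A-rich sites. Stem-loop mRNAs among them were not told apart, so these UMIs do not give the level of the stem-loop mRNAs. In cycling cells 11 rose and 1 fell, with a median log2 fold of 1.46 against -0.01 for all genes tested. Hist1h2ab, an H2A gene, had 138.5 and 82.9 CPM there against 48.6 and 16.3 CPM in radial glia-like cells (log2 2.05, edgeR adjusted p = 0.0013). Hist1h2bc, an H2B gene, was the one that fell (log2 -1.15, adjusted p = 0.0081). In mature glutamatergic-like against radial glia-like cells 16 fell and 2 rose (median -2.55 against -0.01), and in striatal neuron-like against mature glutamatergic-like cells 10 rose and 0 fell (median 1.43 against -0.02). The counts were 4 lower and 2 higher in intermediate progenitor-like, 8 lower and 3 higher in Sst interneuron-like cells, and 2 lower and 0 higher (Hist1h1e and Hist1h2an) from immature to mature glutamatergic-like cells. Of all genes, 5.47% rose and 5.29% fell in cycling cells, and 16.7% went either way in mature glutamatergic-like cells. The shares higher and lower were 3.58% and 5.45% in striatal neuron-like and 8.06% and 9.05% in intermediate progenitor-like cells. They were 14.5% and 16.8% in Sst interneuron-like cells, and 2.04% and 1.6% from immature to mature glutamatergic-like cells.

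Hist3h2ba and Hist3h2a, an H2B and an H2A gene of the Hist3 cluster, went against the rest of that list. Hist3h2ba had 1315 and 1102 CPM in intermediate progenitor-like cells against 328 and 273 CPM in radial glia-like cells, with no overlap (log2 1.92, edgeR adjusted p = 5.5e-10), and Hist3h2a rose by 1.63 (adjusted p = 3.7e-06). They were also the 2 that rose in mature glutamatergic-like cells, by 0.98 (adjusted p = 5.1e-05) and 1.14 (adjusted p = 0.00013). In Sst interneuron-like cells they rose by 1.22 (adjusted p = 3e-06) and 1.28 (adjusted p = 7.7e-05), beside the linker histone gene Hist1h1c (0.98, adjusted p = 0.0026, and -0.2 on the per cell scale).

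Genes that place histones split in the same comparisons. Unlike the histone genes, the genes of this and the following lists were not left out of the clustering and could shape the classes. The cycling class was named from genes of dividing cells, so rises of replication genes in it are a description and no independent evidence. Of 8 genes listed for replication-coupled deposition of H3 and H4, 6 rose in cycling cells (median 1.26). The largest folds were those of Chaf1b and Chaf1a of the CAF-1 complex (1.41 and 1.29, edgeR adjusted p = 0.0096 and 0.047) and Mcm2 of the replicative helicase (1.27, adjusted p = 0.0069). That list also counts Hjurp, the chaperone of the centromere variant Cenpa, so its counts and medians are not of H3 and H4 deposition alone. Of the same 8, 7 fell in mature glutamatergic-like cells (median -1.15), 5 in Sst interneuron-like (-0.99) and 4 in intermediate progenitor-like cells (-1.47), with 0 higher. Of 8 genes for H3.3 deposition, Dek alone rose in cycling cells (1.02, adjusted p = 0.00082), and in mature glutamatergic-like cells Atrx rose (0.63, adjusted p = 0.026) while Dek and the chaperone Asf1a fell (-1.9 and -1.16, adjusted p = 4e-09 and 0.00031). In Sst interneuron-like cells 1 of the 8, Ubn2 of the HIRA complex, rose (0.83, adjusted p = 0.048, and -0.4 on the per cell scale) and 3 fell. Ubn2 was also the 1 that rose in striatal neuron-like against mature glutamatergic-like cells (0.93, adjusted p = 0.034, and -0.13 per cell). Of all genes, 5.47% rose in cycling and 3.58% in striatal neuron-like cells, and 9.05% fell in intermediate progenitor-like cells. The H3.3 deposition genes called were 3 of 8 in mature glutamatergic-like and 4 of 8 in Sst interneuron-like cells, where 33.5% and 31.2% of all genes passed.

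Of 8 tested genes for exchange of H2A.Z, 3 rose in cycling cells, namely Anp32e, which removes H2A.Z (0.91, edgeR adjusted p = 0.0025), Actl6a (0.89, adjusted p = 0.0048) and Vps72, which binds H2A.Z in the SRCAP and p400 complexes (0.66, adjusted p = 0.044). Anp32e fell by 0.85 on the log2 scale in intermediate progenitor-like cells (adjusted p = 0.013), by 1.59 in mature glutamatergic-like (adjusted p = 1.7e-07) and by 1.05 in Sst interneuron-like cells (adjusted p = 0.00067), each against radial glia-like cells. In all, 3 of the 8 fell in mature glutamatergic-like cells and 0 rose (median -0.18), where 16.7% of all genes fell. In intermediate progenitor-like cells Vps72 rose by 0.84 (adjusted p = 0.011), and in Sst interneuron-like cells it rose by 0.73 (adjusted p = 0.013, and -0.51 on the per cell scale), beside Yeats4 (0.65, adjusted p = 0.031, and -0.57 per cell). In striatal neuron-like against mature glutamatergic-like cells Anp32e (0.88, adjusted p = 0.01) and Actl6a (0.84, adjusted p = 0.015) rose, with -0.16 and -0.19 on the per cell scale. Of all genes, 5.47% rose in cycling, 8.06% in intermediate progenitor-like, 14.5% in Sst interneuron-like and 3.58% in striatal neuron-like cells.

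Cenpa, which encodes the H3 variant of centromeres, was higher in cycling cells (log2 0.91, edgeR adjusted p = 0.0053) and fell by 4.31 on the log2 scale in mature glutamatergic-like cells (adjusted p = 8.6e-15). Slbp, whose protein binds the stem-loop of canonical histone mRNAs, rose by 0.96 in cycling cells (adjusted p = 0.005) and fell by 1.83 in mature glutamatergic-like cells (adjusted p = 3.1e-07), where it was 1 of 1 and 1 of 3 genes called among 6 tested for stem-loop processing. Of 9 tested H2A-H2B chaperone genes, Supt16 rose in cycling cells (0.74, adjusted p = 0.046), and in mature glutamatergic-like cells Nap1l3 and Nap1l5, known from neurons, rose while Nap1l1 (-0.71, adjusted p = 0.0022) and Npm1 (-0.6, adjusted p = 0.0043) fell. Of 5 tested genes that phosphorylate or read H2A.X, 0 passed in cycling cells and 2 rose in intermediate progenitor-like cells, at low levels. Atr had 61.4 and 47.3 CPM there against 24.3 and 11.2 CPM in radial glia-like cells (1.75, adjusted p = 0.025). Trp53bp1 had 49.15 and 66.8 CPM against 28.4 and 25.8 CPM (1.18, adjusted p = 0.049). Trp53bp1 also rose in mature glutamatergic-like (1.02, adjusted p = 0.018) and Sst interneuron-like cells (1.88, adjusted p = 8e-05). H2afx had the opposite sign in these 3 comparisons. Of all genes, 10.8% passed in cycling, 17.1% in intermediate progenitor-like and 31.2% in Sst interneuron-like cells. In mature glutamatergic-like cells 33.5% passed, against 3 of 6 stem-loop and 4 of 9 chaperone genes.

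In the Nanopore data H2afx, H2afy2 and H1f0 gave 1 isoform each and H2afz-201 took 99.7% of 13292 H2afz UMIs. H2afv, H3f3a and H3f3b had at least 2 isoforms with enough UMIs for a test of isoform usage (edgeR diffSpliceDGE on sums per class and aliquot, 468 genes).

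H2afv-201, which joins exon 2 to exon 4 of H2afv-202 and so lacks the 114 bases printed above (38 codons, in frame), took 10.4% of H2afv UMIs (558 of 5384). Its share was 6.52% and 7.86% in radial glia-like, 12.9% and 11.8% in cycling, 12.2% and 5.31% in intermediate progenitor-like, 5.88% and 9.20% in immature and 18.5% and 11.3% in mature glutamatergic-like, 16.7% and 11.3% in Sst interneuron-like and 10.98% and 12.7% in striatal neuron-like cells. Radial glia-like cells were below cycling, mature glutamatergic-like, Sst interneuron-like and striatal neuron-like cells in both aliquots, and the intermediate progenitor-like values, from 6 of 49 and 13 of 245 UMIs, lay on both sides of them. Usage of H2afv isoforms in mature glutamatergic-like against radial glia-like cells passed (adjusted p = 0.027 by diffSpliceDGE), where 21.4% of the 468 genes passed. That call was lost without any 1 of the 4 sums (adjusted p from 0.062 to 0.24) and with no filter on low counts (0.3). Cycling against radial glia-like cells had an adjusted p of 0.079 without and 0.0086 with the aliquot as a block, where 4.27% of genes passed.

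**Figure D5:**
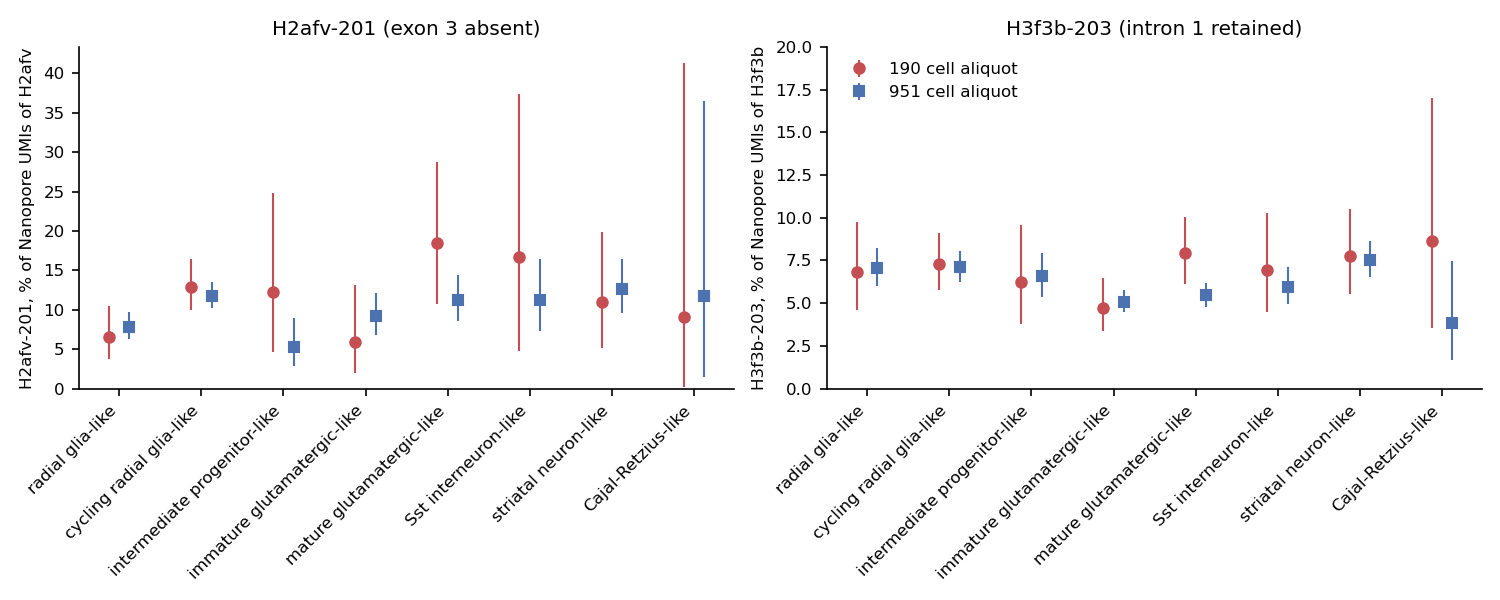
Shares of the minor isoforms H2afv-201 (percent of H2afv UMIs) and H3f3b-203 (percent of H3f3b UMIs) in Nanopore data by class (linear axes from 0); circles are the 190 and squares the 951 cell aliquot, and bars are exact binomial 95% intervals. H2afv-201 is at 6.52% and 7.86% in radial glia-like and 12.9% and 11.8% in cycling cells, and H3f3b-203 stays between 3.87% and 8.64% in all sums.

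H3f3b-203, a transcript without a coding region in the annotation that keeps intron 1 of H3f3b (359 bases, chr11:116024020-116024378), took 6.30% of H3f3b UMIs (1544 of 24497). The end of exon 1 and the start of this intron are printed with the intron in capitals, at chr11:116024359-116024388 (minus strand).

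H3f3b exon 1 and intron 1: tcggctttggGTGAGTTCGCGGCTCTGCCG

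The share of H3f3b-203 was 6.85% and 7.05% in radial glia-like, 7.29% and 7.11% in cycling, 4.74% and 5.09% in immature and 7.92% and 5.46% in mature glutamatergic-like and 7.77% and 7.54% in striatal neuron-like cells. Both immature values lay below those of all other classes except 1 Cajal-Retzius-like sum (3.87%, 8 of 207 UMIs). No test of H3f3b usage passed in the 6 comparisons (adjusted p from 0.52 to 0.93), except without the Sst interneuron-like sum of the 190 cell aliquot (0.012 against radial glia-like cells).

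H3f3a usage passed between Sst interneuron-like and radial glia-like cells (adjusted p = 0.017), where 17.1% of the 468 genes passed. That test covers the gene as a whole and names no isoform. The isoform described here, H3f3a-202, is below 5% in every class and was chosen after its values were seen. It ends in an extended exon 3 (523 bases against 154, chr1:180809748-180810270) and took 1.68% of H3f3a UMIs (397 of 23611). With the aliquot as a block, H3f3a usage also passed for mature glutamatergic-like against radial glia-like cells (adjusted p = 0.047, or 0.097 without the block). The share of H3f3a-202 was 0.726% (3 of 413) and 1.18% (22 of 1861) in radial glia-like and 1.26% (4 of 318) and 2.89% (53 of 1837) in Sst interneuron-like cells, with overlapping intervals in the 190 cell aliquot. The call was lost with no filter on low counts (adjusted p = 0.83), with the finer clustering (0.14), without either radial glia-like sum (0.18 and 0.12) and without the Sst interneuron-like sum of the 951 cell aliquot (0.91). In the remaining comparisons 0 of the 3 member genes passed by diffSpliceDGE, where 7.26% of genes passed for intermediate progenitor-like cells, 2.56% between glutamatergic classes and 7.48% for striatal neuron-like cells. Without adjustment, H2afv passed in cycling cells (0.0044 by the diffSpliceDGE test) and no member in those comparisons.

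Of H2afy UMIs, H2afy-201 (macroH2A1.2) took 95.1% (2175 of 2286) and H2afy-202 (macroH2A1.1) 0.569% (13 UMIs, interval 0.303 to 0.971). H2afy-203, a retained intron form, had 57 UMIs (2.49%). Qk and Ddx5 belong to the RNA-binding proteins known to act on this exon pair. Qk fell in all 4 comparisons with radial glia-like cells, from 194.5 and 268 CPM there to 126 and 103 in cycling (log2 -1.11, edgeR adjusted p = 0.0032), 36.9 and 36.2 in intermediate progenitor-like (-2.77, adjusted p = 9.3e-07) and 29.5 and 10.3 in mature glutamatergic-like cells (-3.96, adjusted p = 5.3e-13). Qk was the only 1 of 5 tested regulators of these exons called in each of the 4 comparisons, and Ddx5 was not called in them. Of all genes, 5.29% fell in cycling, 9.05% in intermediate progenitor-like, 16.7% in mature glutamatergic-like and 16.8% in Sst interneuron-like cells. H2afy-202 had too few UMIs for a comparison of classes.

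The Nanopore counts hold the same molecules as the Illumina counts, since barcodes and UMIs were assigned with the Illumina data as a guide, so they are no second sample. All genes kept 54.9% and 58.9% of their Illumina UMIs as isoform-assigned Nanopore UMIs (190 and 951 cell aliquot). The members kept more, 82.9% and 89.5% for H2afz, 81.9% and 87.3% for H2afv, 81.5% and 88.2% for H2afy2, 83.6% and 86.1% for H3f3a, 78.6% and 84.7% for H3f3b and 74.4% and 80.3% for H1f0. H2afx kept 58.0% and 72.2% and H2afy 72.04% and 68.3%. The first 6 genes passed as higher in Nanopore by edgeR, with log2 folds from 0.56 (H1f0, adjusted p = 0.036) to 0.72 (H2afz, adjusted p = 0.0057), where 50.5% of 9855 genes passed, 20.2% higher and 30.3% lower. H2afx (0.28, adjusted p = 0.52) and H2afy (0.43, adjusted p = 0.24) passed with the aliquot as a block (adjusted p = 0.0015 and 3.1e-05), and each also without the Illumina library of the 190 cell aliquot (1.2e-05 and 1.9e-06), H2afy further without the Nanopore library of the 951 cell aliquot (0.029). The H1f0 call was lost without the Illumina library of the 951 cell aliquot (0.1) and with no TMM factors (0.16). The 32 class folds called in Illumina all had the same sign in Nanopore sums, and the log2 ratios of the 2 platforms differed by -0.6 to 0.27 over the 48 member folds.

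H2afx and H2afy differed between the aliquots themselves. With classes as a block, H2afx was higher in the 190 cell aliquot by a log2 fold of 0.55 (SE 0.1, edgeR adjusted p = 2.6e-06) and H2afy by 0.49 (SE 0.08, adjusted p = 5.2e-07), in 8 of 8 classes for both, where 5.75% of genes passed (3.5% higher in the 190 cell aliquot). Each aliquot is 1 Illumina library here, and the test took its class sums as replicates. Its p-values measure how alike the offset was over classes and not the spread between libraries. No other member passed, with log2 folds from -0.08 (H3f3b) to 0.21 (H1f0, adjusted p = 0.14). Of 21 replication-dependent histones tested, 6 passed, all higher in the 190 cell aliquot, while the median log2 fold of the 21 was 0.04 (-0.05 for all genes). Summed over 67 of the 68 listed replication-dependent histones, tested or not, the Illumina level was 4133 and 1692 CPM in radial glia-like and 8388 and 3654 CPM in cycling cells. The Nanopore level of this sum was 1756 and 1592 and 2677 and 2838 CPM. For H2afx the Nanopore level was 656 and 356 CPM in radial glia-like and 1260 and 942 CPM in cycling cells, still higher in the 190 cell aliquot, but lower there in 5 of the other 6 classes, from 0 to 24 UMIs a sum. H2afy was higher in the 190 cell aliquot in 8 of 8 classes in Nanopore as well, from 444 and 194.3 CPM in Cajal-Retzius-like to 815 and 379 CPM in intermediate progenitor-like cells. The part of the libraries in this difference was not tested.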

How the data were processed

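Whole-number UMI counts were used as deposited by the authors. The Illumina counts per gene and cell were made by the authors with Cell Ranger 2.0 on mm10, and the Nanopore counts per isoform and cell with minimap2 and Sicelore on Gencode transcripts, assigning barcodes and UMIs with the Illumina data as a guide. The study joined both aliquots by canonical correlation analysis, and the same route was taken here with Seurat 5.3.0 in R 4.3.3 after leaving out cells under 1400 genes (5% of all genes) and histone genes. Doublets were called with scanpy 1.11.5. Counts were summed per class and aliquot where both held at least 5 cells (7 of 8 classes), filtered for low counts, TMM-scaled and tested with edgeR 4.0.16 (glmQLFTest, and diffSpliceDGE for isoforms, each in 1 fit over 14 sums, and 4 library sums between platforms), with Benjamini-Hochberg adjustment, after a check on simulated data. DESeq2 1.42.0 was an alternative, as were fits without 1 sum, without the count filter, with UMIs per cell as the scale, without doublets, at resolution 1.2 and with the aliquot as a block. Aliquot numbers pair the sums, since each marks 1 library, but the main fits did not use this pairing and only those with the aliquot as a block did. Deviations from class means correlated between classes at 0.129 to 0.369 (median 0.235, 21 pairs). Between platforms the deviations correlated at 0.597. Shares carry exact binomial 95% intervals for counting error only. Named were all 8 members, isoforms of at least 5% in a class with at least 20 UMIs, and from each gene list up to 3 called genes per direction with the largest folds. Members and lists were chosen with earlier results of these data known. Exons come from the Gencode annotation of GRCm38 and promoters from RefSeq. Reads shared with near-identical histone copies or with antisense transcripts were not told apart.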

Additional observations from a re-analysis of the deposited data

Results flagged for a closer look

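H2afy, a macroH2A gene, moved in opposite directions in the 2 aliquots in 2 comparisons with radial glia-like cells, and the difference between the aliquots was not tested. The log2 ratio of CPM for intermediate progenitor-like cells was 0.4 in the 190 cell aliquot and -0.4 in the 951 cell aliquot. For Sst interneuron-like cells it was 0.32 and -0.81. The intermediate progenitor-like and Sst interneuron-like sums of the 190 cell aliquot held 9 and 18 cells.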

How the results depend on the processing

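Over the member tests, 55 of 56 kept direction and side of the threshold in DESeq2 (H2afy2 in mature glutamatergic-like cells did not), 54 with no count filter, 47 of 48 without doublets, 45 of 48 at resolution 1.2 and 29 of 48 on the scale of UMIs per cell. With the replicate block 48 of the 56 gene and platform folds kept both and 8 passed in addition, beside the isoform calls below. Of 224 values with 1 sum or library left out, 193 kept both, 17 lost the call, 5 gained it and 9 changed sign. A class left with 1 sum was assumed to vary like the others.

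The number of members that passed in cycling cells (6) ranged from 1 to 7 with 1 sum left out, the 1 without the radial glia-like sum of the 951 cell aliquot. From immature to mature glutamatergic-like cells (2) it was 4 with the replicate block, and H3f3b lost its call without the immature sum of the 951 cell aliquot (log2 -0.55). For striatal neuron-like cells (6) the number was 2 on the per cell scale, H1f0 as higher and H3f3a as lower. For isoform usage the member count in cycling cells (0) was 1 with the replicate block. In mature glutamatergic-like cells (1) it was 0 with no count filter, 2 with the replicate block and 0 in each fit with 1 sum left out. In Sst interneuron-like cells (1) it was 0 with no count filter, 0 at resolution 1.2 and 0 to 2 with 1 sum left out. The cause was not tested, other than that per cell values add the classes' different UMIs per cell.

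These signs turned on the per cell scale. In intermediate progenitor-like cells H1f0 went to -0.37. In Sst interneuron-like cells H3f3a went to -0.47, H3f3b to -0.5, Hist1h1c to -0.2, Ubn2 to -0.4, Vps72 to -0.51 and Yeats4 to -0.57. Between glutamatergic classes H2afz went to 0.27, H2afv to 0.02, H2afx to 0.2, H2afy to 0.34 and H3f3a to 0.37. In striatal neuron-like cells H2afz went to -0.31, H2afx to -0.84, H2afy to -1.03, H2afy2 to -0.06, H3f3a to -0.46, H3f3b to -0.19, Actl6a to -0.19, Anp32e to -0.16, Ddx5 to -0.49 and Ubn2 to -0.13. H2afy in intermediate progenitor-like cells (-0.1) was 0.02 at resolution 1.2. With 1 sum or library left out, signs turned for H2afy (ranges -0.46 to 0.24 in intermediate progenitor-like, -0.93 to 0.22 in Sst interneuron-like, -0.54 to 0.14 in mature against immature glutamatergic-like and -0.25 to 0.43 in striatal neuron-like cells, with -0.18 between), H1f0 (-0.2 to 0.25, with -0.12 between, in intermediate progenitor-like cells) and H2afx (0.0 to 0.43 in striatal neuron-like cells, and -0.13 to 0.73 between platforms, lowest without the Illumina library of the 951 cell aliquot). None of the folds that turned with 1 sum or library left out had passed before.

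Over all genes, DESeq2 called 289 in cycling (edgeR 830), 679 in intermediate progenitor-like (1319), 1607 in mature glutamatergic-like (2579), 1482 in Sst interneuron-like (2409), 94 from immature to mature glutamatergic-like (280), 320 in striatal neuron-like cells (696) and 3071 between platforms (4976). With the replicate block 1605 passed in cycling cells, 885 between glutamatergic classes and 1359 in striatal neuron-like cells. Per cell, 2060 passed in intermediate progenitor-like, 4909 in Sst interneuron-like, 1316 between glutamatergic classes and 4522 in striatal neuron-like cells. For isoforms, no count filter gave 12 (from 20) in cycling, 219 (from 100) in mature glutamatergic-like, 1 (from 12) between glutamatergic classes and 14 (from 35) in striatal neuron-like cells, and the replicate block 35, 160, 48 and 63. With 1 sum left out, the lowest counts of genes were 228, 537, 1500, 1063, 84 and 312 and of isoform genes 5, 6, 40, 31, 1 and 3 in the order of the comparisons, mostly without a 951 cell aliquot sum.

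Depth limits the smallest sums, 9 intermediate progenitor-like cells and shares such as 4 of 24 H2afv UMIs, and 1 suspension allows no statement about other animals.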

Other observations

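The genes whose level most resembled a member's over the 16 sums of class and aliquot are given as a description, by Pearson's r of log2(CPM + 1) among 3040 genes with a mean of at least 50 CPM. The sums share libraries and depth. For H2afz they were Hmgb2, a chromatin protein of dividing cells (0.963), Ran (0.957) and 2810417H13Rik (0.955). For H2afv they were the linker histone gene Hist1h1e (0.951), Rnaseh2b (0.944) and Hmgb2 (0.940), and for H2afx Snrpb, Pbk (0.954) and Dut, which keeps uracil out of DNA (0.944). H1f0 was nearest to Hist1h1e (0.939) and then to the nucleosome-binding genes Hmgn2 and Hmgn1 (0.888 each).

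The other members had different neighbours. H3f3b was nearest to the RNA helicase gene Ddx5 (0.876), Clk1 (0.859) and Hnrnph3 (0.838), and H3f3a to Hnrnph3 (0.892), Ptbp2 (0.876) and Prdx2 (0.871). H2afy2 was nearest to Slain1 (0.903), Ypel1 and Hnrnph3 (0.892 each), and H2afy to Hdgf (0.905), Rpl7l1 (0.854) and Gm8186 (0.851). Among members, r was 0.942 for H2afz and H2afx, 0.934 for H2afz and H2afv, 0.909 for H2afv and H1f0, 0.889 for H2afy2 and H3f3a and 0.797 for H3f3a and H3f3b. It was 0.0439 for H2afz and H3f3a and -0.181 for H2afz and H2afy2.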
